A study of Homo sapiens with 18 samples.

Results

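Gene expression after treatment of PANC-1 cells with 800 nM C16 was compared with that after DMSO. The comparison took 6 of the 18 libraries of the series, 3 for each treatment, and its members were the 9963 of 26485 listed genes whose normalized counts averaged 10 or more over the 9 libraries of the C16 table. PANC-1 is an established human cell line of pancreatic ductal adenocarcinoma (PDAC) origin, labeled as epithelial, and RNA was collected 72 h after treatment. DMSO is the solvent control, and C16 is an inhibitor of the kinase activity of protein kinase R (PKR). The remaining 3 libraries of the table received 400 nM C16, share the DMSO controls and are given only as context. The dose of 400 nM is known from the labels alone. All libraries came from 1 line at 1 time point, and whether replicates were separate cultures is not stated, so p-values measure the spread between these libraries.

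PKR, encoded by EIF2AK2, binds double-stranded RNA, for example of viruses, and then phosphorylates the translation initiation factor eIF2α. Phosphorylated eIF2α slows general protein synthesis but lets some mRNAs, such as that of the transcription factor ATF4, be translated better, a program known as the integrated stress response. EIF2AK2 is itself induced by interferon, together with other antiviral genes.

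Reads on genes numbered 1148151 to 1474308 per library with DMSO and 894145 to 1150862 with 800 nM C16. The 10 highest genes took 5.13% to 5.16% of the reads with DMSO and 3.85% to 4.04% with 800 nM C16. Of the 8 markers of the PANC-1 list, KRT8 (3209 to 4501 normalized counts over the 9 libraries), KRT18 (1381 to 1586) and VIM (1887 to 3081, with 30.01% of its exon bases shared with VIM-AS1), as well as KRT19, were high. The epithelial markers CDH1 (13.4 to 35.8) and EPCAM (16.2 to 32.4) were low, and the ductal keratin KRT7 stayed between 0.761 and 8.51. The summed level of the 8 genes was 10309 to 10727 with DMSO and 7144 to 7861 with 800 nM. VIM passed the test and fold threshold as lower at 800 nM (log2 fold change -0.61), but not after a trend over the GC content of genes was removed (-0.56) or without the first 800 nM library (-0.57). Of 5 fibroblast markers COL1A2 and DCN were at 0 in all 9 libraries, and the summed level of the list was 131 to 161 with DMSO and 60.1 to 93.8 with 800 nM, nearly all of it COL1A1. Of 4 immune markers PTPRC and CD3E were at 0 throughout, and the sum (52.4 to 62.2, then 104 to 127) was mostly CD68, which also marks lysosomes. Endothelial (3), acinar (3) and endocrine (2) markers were at 0 in every library.

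VWA1, which encodes a matrix protein with a von Willebrand factor A domain (chr1:1435523-1442882, plus strand; hg38 throughout, coordinates as deposited), had 799, 761 and 784 normalized counts with DMSO, 386, 334 and 332 with 400 nM and 156, 165 and 137 with 800 nM. The 3 groups did not overlap, and the fall at 800 nM was 5.1-fold (log2 fold change -2.35 ± 0.08 SE, adjusted p = 1.85e-32, limma). This was the smallest adjusted p of all genes tested. KRT19 (chr17:41523617-41528389), a keratin of ductal epithelium, had 1655, 1549 and 1543 with DMSO and 519, 612 and 555 with 800 nM. All treated values lay below all controls, a 2.82-fold fall. LXN (chr3:158666414-158672693), encoding the carboxypeptidase inhibitor latexin, went from 205, 219 and 193 to 17.1, 25.6 and 13.4. Its fall of 10.8-fold (log2 -3.44 ± 0.17, adjusted p = 3.92e-25) was the greatest of all genes averaging 50 or more. DUSP5 (chr10:110497867-110511544), a nuclear phosphatase of ERK, moved the other way, from 19.4, 19.999 and 27.4 to 148, 149 and 175. The groups again did not overlap, and the rise was 6.85-fold (log2 2.78 ± 0.14, adjusted p = 3.81e-24). The mRNA of the drug's target did not pass the test: EIF2AK2 (chr2:37105141-37157047) had 45.7, 49.5 and 54.1 with DMSO and 51.4, 48.7 and 49.6 with 800 nM (log2 0.01 ± 0.17, adjusted p = 0.97), with overlapping groups. A kinase inhibitor acts on the protein, so this value is no check of the label. GADD45A, a growth arrest gene, rose 1.61-fold, from 84.5, 99.04 and 83.0 to 134, 149.9 and 146 (adjusted p = 1.03e-06). CDKN1A, encoding the CDK inhibitor p21, had 48.6, 79.0 and 73.1 with DMSO against 93.8, 91.4 and 81.1 with 800 nM. It was higher in all treated libraries but short of the fold threshold (log2 0.43 ± 0.14, adjusted p = 0.011, limma). The study, with a different test, lists CDKN1A as raised at 800 nM under the same fold and false discovery rate thresholds. It also reports a rise by RT-PCR, so the call here differs from the study's.

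**Figure D1:**
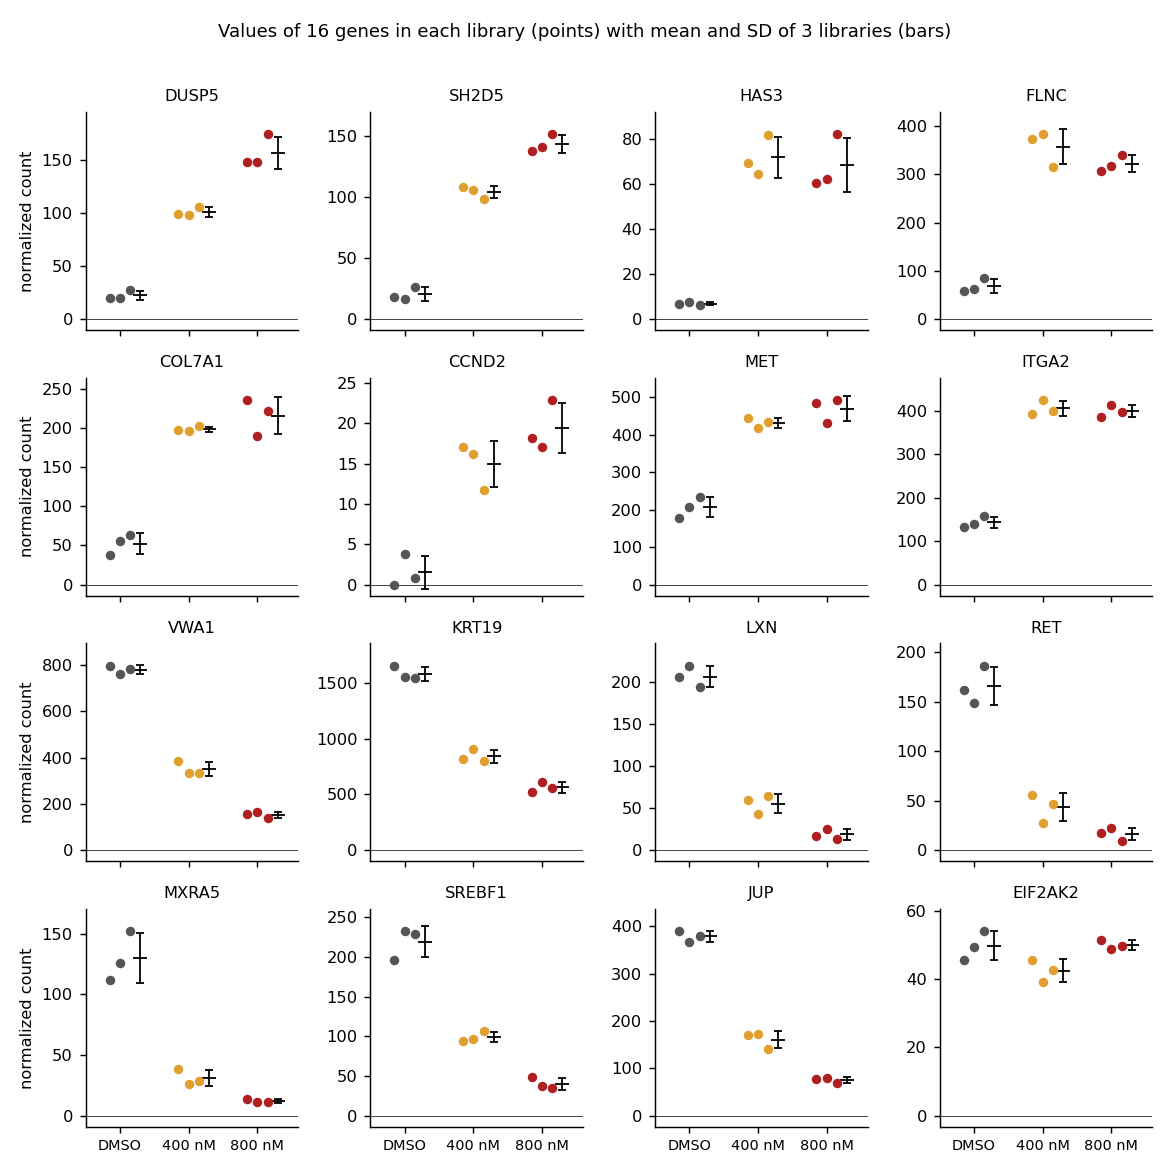
Normalized counts (linear axes) of 16 genes in each of the 3 DMSO, 3 C16 400 nM and 3 C16 800 nM libraries of PANC-1 cells, shown as points, with the mean and SD of the 3 libraries as bars. DUSP5, SH2D5, HAS3, FLNC, COL7A1, CCND2, MET and ITGA2 lie above the controls in all treated libraries, the next 7 genes from VWA1 to JUP lie below them, and EIF2AK2 overlaps at 800 nM.

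At an adjusted p below 0.05 and a fold change above 1.5, the thresholds used in the study, 1158 genes were called up (11.6% of those tested) and 1403 down (14.1%) at 800 nM, or 25.7% in either direction. At 400 nM 705 genes were called up (7.08%) and 543 down (5.45%), 12.5% in either direction. The median log2 fold change over all genes tested at 800 nM was 0.002, so the lists described below are read against a center of 0. Their counts of called members are read against the shares of 11.6% up and 14.1% down. In a list near these shares, single members named do not speak for the list. Of the genes called up, 1116 had all 3 treated libraries above all 3 controls, and of those called down 1339 had them all below. Such separation was also common without a call. Among the uncalled genes 1485 lay above the controls, 1223 below, and 4694 overlapped. Lack of overlap, given below for single genes, is thus a description and does not set a gene apart. With a minimum mean of 30 in place of 10, 818 genes were up and 800 down among 7081 tested: the called falls were more frequent among lowly expressed genes. With the genes cut into 5 equal groups by level, 11.4% were up and 20.5% down in the lowest group (means of 10 to 22.4), and 10.4% and 9.03% in the highest (133 and above).

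**Figure D2:**
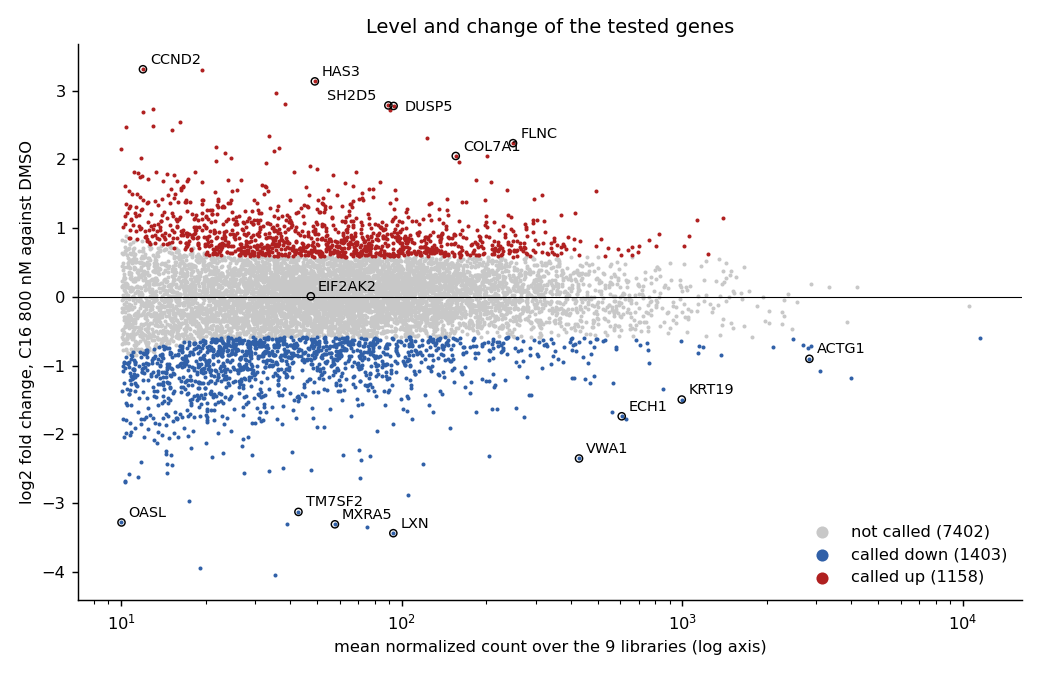
Log2 fold change of 800 nM C16 against DMSO (3 libraries each) for the 9963 tested PANC-1 genes, against the mean normalized count over the 9 libraries on a log axis. Each point is a gene, 1158 are called up and 1403 down, and labeled genes include LXN (-3.44) and VWA1 (-2.35) below and DUSP5 (2.78) and SH2D5 (2.78) above 0.

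The 15 greatest rises ranged from 1.62 to 2.78 on the log2 scale. They were taken from called genes averaging 50 normalized counts or more with all treated libraries above all controls, so their separation at 800 nM is set by the rule. Several of the encoded proteins sit at the plasma membrane. STX3, a syntaxin of membrane fusion, had 33.0, 39.0 and 37.3 with DMSO and 177, 180.4 and 195 with 800 nM, a 4.94-fold rise. CDCP1, a transmembrane substrate of SRC family kinases, rose from a mean of 65.4 ± 10.2 (SD, n = 3) to 274 ± 41.5, and F2RL1, the protease-activated receptor PAR2, from 79.5 ± 2.91 to 262 ± 10.0. FLNC, an actin cross-linker, and COL7A1, the collagen of anchoring fibrils, rose 4.71- and 4.14-fold. Signaling genes in the set were SH2D5, encoding an adaptor with an SH2 domain (6.89-fold), the tyrosine kinase gene ABL2 (3.88-fold), the calcineurin inhibitor gene RCAN1 (3.41-fold) and RRAGD (3.19-fold), a Rag GTPase that recruits mTORC1 to lysosomes. Enzymes were the sulfatase gene ARSI (6.57-fold), the purine nucleoside phosphorylase PNP (3.53-fold) and the cholesteryl ester hydrolase NCEH1 (3.2-fold). The tight junction gene CLDN1 (3.07-fold) and MYEOV (3.14-fold) completed the set. At 400 nM the log2 fold changes of these 15 genes lay between 1.31 and 2.66.

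The 15 greatest falls by the same rule, here with all treated libraries below all controls, ranged from -1.90 to -3.44. RET, the receptor of the GDNF family ligands, had 162, 149 and 187 with DMSO, 55.3, 27.7 and 46.8 with 400 nM and 17.1, 21.9 and 9.54 with 800 nM. The 400 nM values also lay below the controls. They enter the rule through the mean level and the shared estimate of the spread, and they share the DMSO libraries. The fall of RET was 10.1-fold at 800 nM. MXRA5 (9.91-fold) and SPARC (6.21-fold) encode secreted matrix proteins. Polarity and junction genes were JUP, encoding plakoglobin of desmosomes (389.6, 367 and 378, then 76.7, 80.4 and 68.7), LLGL2, a basolateral polarity gene (3.85-fold), and RAB13, a GTPase of tight junction trafficking (5.17-fold). SREBF1, the transcription factor of fatty acid synthesis, fell from 196, 232 and 228 to 48.4, 37.8 and 34.4. ALDH3A2, a fatty aldehyde dehydrogenase, fell 3.73-fold. FAAP100, a subunit of the Fanconi anemia core complex, had nearly equal DMSO values (227, 228 and 225) and 22.2, 32.9 and 36.3 with 800 nM. The organic anion exporter ABCC3 (4.97-fold), LYNX1, a modulator of nicotinic receptors (4.68-fold), the LIM protein gene CRIP2 (3.75-fold) and FAM65C (4.93-fold) completed the set. Chromosome 17 held 6 of the 15 falls and 0 of the 15 rises, with 6.23% of the tested genes. Chromosome 3 held 4 of the rises and 1 of the falls, with 5.58%. The median exon GC content was 55.0% on chromosome 17 and 45.7% on chromosome 3. These chromosomes were picked after the counts were seen, and the difference was not tested. Below the level limit a few genes, picked after their values were seen, moved further: CCM2L had 84.5, 91.4 and 86.8 with DMSO against 8.07, 4.87 and 1.91 with 800 nM, the transcript FER1L4 49.6, 50.5 and 37.3 with DMSO against 2.02, 3.66 and 0.954 with 800 nM, and the myosin gene MYH15 1.94, 2.86 and 2.28 with DMSO against 29.3, 25.6 and 43.9 with 800 nM.

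**Figure D3:**
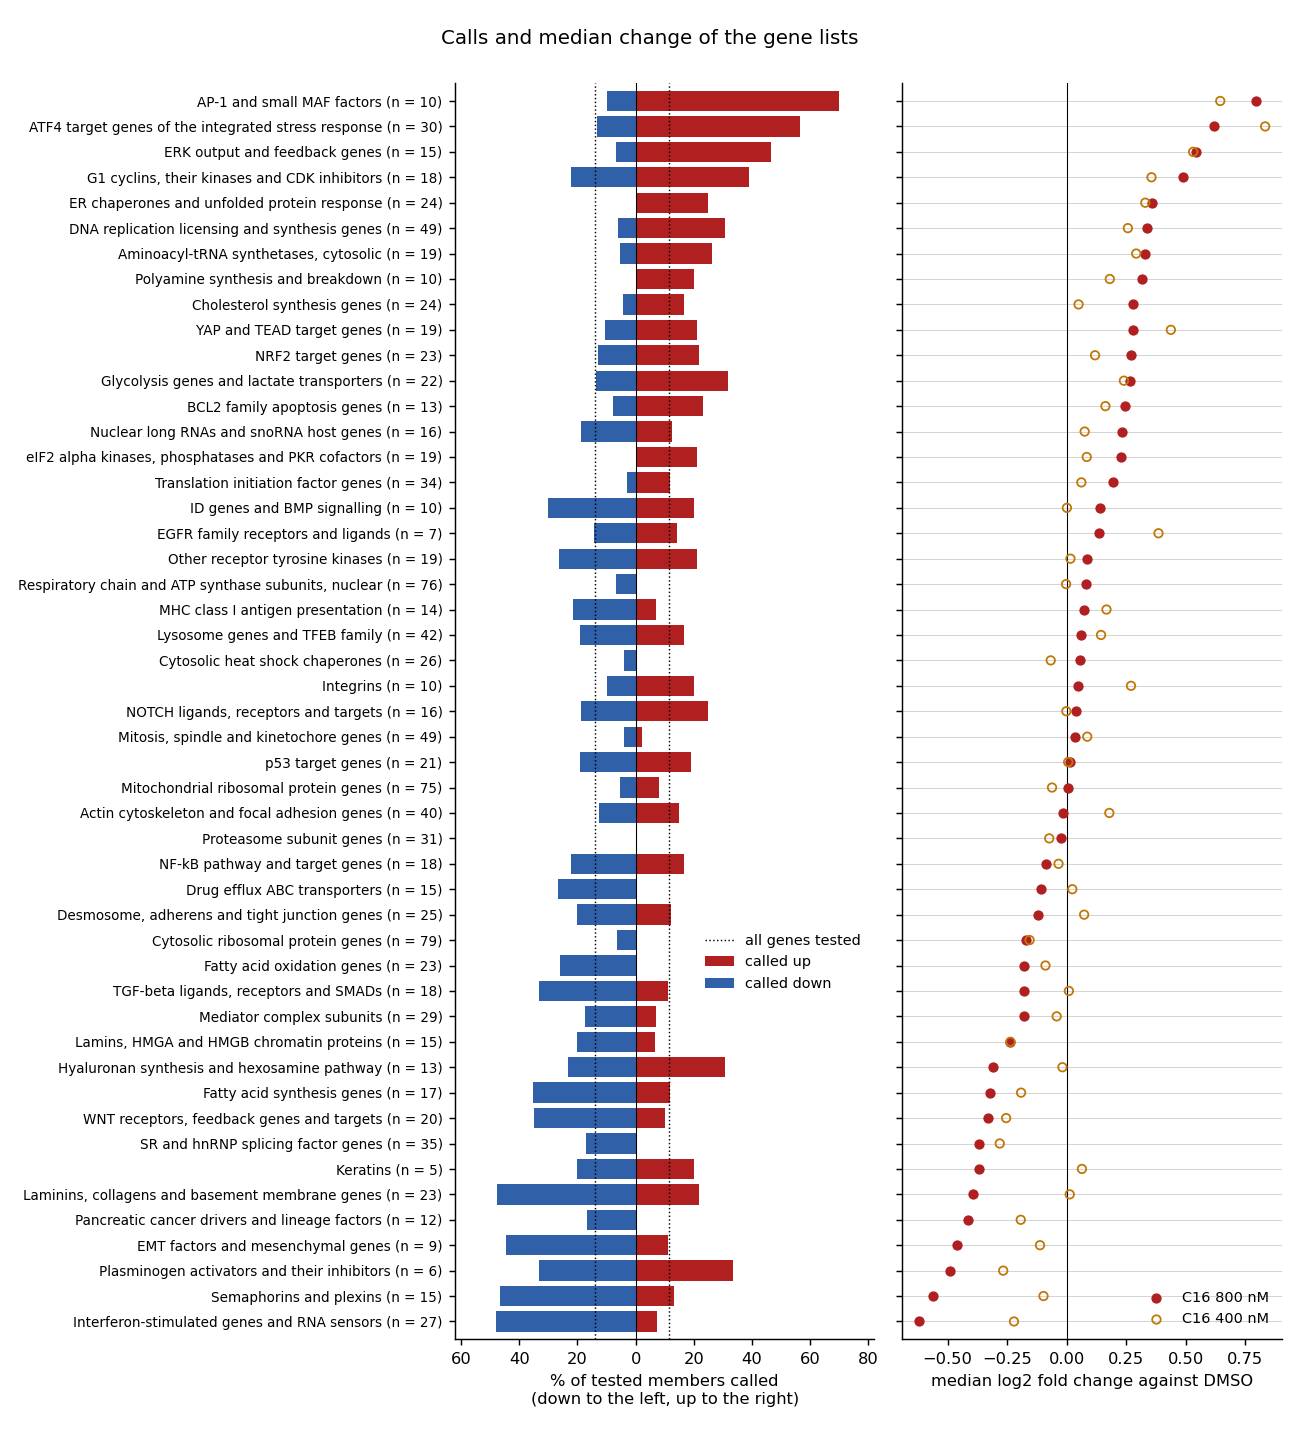
For each gene list with at least 5 tested members, the left panel shows the percentage of tested members called up (right) or down (left) at 800 nM, with dotted lines at the shares over all genes tested (11.6% and 14.1%), and the right panel the median log2 fold change against DMSO at 800 nM (filled) and 400 nM (open). AP-1 factors and ATF4 targets have the highest medians at 800 nM (0.80 and 0.62), and interferon-stimulated genes and semaphorins the lowest (-0.62 and -0.56).

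Of 15 tested ERK output and feedback genes, 7 rose and 1 fell, with a median log2 fold change of 0.54. Among them were the transcription factor ETV4 (log2 1.10), the cytokine LIF (0.92) and SPRY4 (0.85), a feedback inhibitor of receptor signaling, beside DUSP5. SPRY4 had 56.4, 53.3 and 49.5 with DMSO against 90.8, 91.4 and 107 with 800 nM, without overlap. DUSP6, the phosphatase of cytoplasmic ERK, had a mean of 21.4 in controls and 20.6 in treated libraries and did not pass the test. The AP-1 and small MAF list had 7 of 10 members called up and 1 down (median 0.80). JUN, a core AP-1 subunit, had 113, 127 and 101 with DMSO against 207, 240.1 and 242 with 800 nM, and its partner FOSL2 24.3, 24.8 and 28.2 with DMSO against 66.6, 59.7 and 64.9 with 800 nM. In both genes every treated library exceeded every control. ATF3 rose 3.74-fold and MAFF 2.58-fold, whereas JUND, named after its value was seen, fell (log2 -0.82); with a trend over GC content removed JUND was no longer called (-0.46).

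Receptor tyrosine kinase genes moved both ways. Of 7 tested EGFR family members and ligands, 1 rose and 1 fell (median 0.14, and 0.05 with a GC trend removed). The ligand HBEGF had 5.83, 6.67 and 10.7 with DMSO and 27.2, 37.8 and 33.4 with 800 nM, and the receptor ERBB2 138, 122 and 128 with DMSO against 65.6, 43.9 and 72.5 with 800 nM. The groups did not overlap in either gene. Among 19 other receptor tyrosine kinases 4 rose and 5 fell (median 0.09, and 0.02 with a GC trend removed). MET, the receptor of hepatocyte growth factor, rose from 179, 208 and 235 to 484, 431 and 492 (2.27-fold, adjusted p = 2.58e-18), EPHB2 2.2-fold and MERTK 1.94-fold, while RET fell as above.

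YAP and TEAD targets had 4 of 19 members called up and 2 down (median 0.28). CTGF, a secreted matricellular protein, rose from 104, 156 and 118 to 252, 302 and 306, and the γ-glutamyl hydrolase gene GGH and TEAD4 rose by 1.10 and 0.69 on the log2 scale. ARHGEF17, a guanine nucleotide exchange factor, had a log2 fold change of -0.68, a call lost with a GC trend removed (-0.44) and without the third DMSO library (-0.58) or the third 800 nM library (-0.58). In the list of ID genes and BMP signaling 2 of 10 rose and 3 fell. ID1, an inhibitor of differentiation factors, fell from 130.2, 140.0 and 127 to 47.4, 43.9 and 41.0 with intermediate values at 400 nM (90.4, 88.8 and 76.6). SMAD6, an inhibitory SMAD, fell (log2 -1.52), and the secreted BMP antagonist NOG rose (1.71). The ligand BMP7 had a log2 fold change of 0.97 and was not called without the third DMSO library (0.77) or the first 800 nM library (0.73). For TGF-β signaling 2 of 18 rose and 6 fell (median -0.18, and -0.02 with a GC trend removed), with 3 falls when the third DMSO library was left out and 5 rises with a GC trend removed. LTBP1, which stores latent TGF-β, rose (log2 1.44), and the receptor TGFBR1 (-0.87) and the repressor SKIL (-0.88) fell.

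Of 20 WNT pathway genes 7 fell and 2 rose (median -0.33); the rises numbered 4 without the third DMSO library and 5 with a GC trend removed. The receptor FZD2 had 53.4, 58.1 and 53.3 with DMSO against 11.1, 14.6 and 6.68 with 800 nM, a 4.94-fold fall without overlap. FZD4 (log2 -1.23), another receptor, fell too, with 18.9% of its exon bases shared with PRSS23, so that its count is less certain. WLS, the carrier that WNT ligands need for secretion, rose from 21.4, 10.5 and 12.9 to 49.4, 42.7 and 45.8, and the transcription factor TCF7 rose (log2 1.16). CTNNB1, encoding β-catenin and named after its value was seen, fell (log2 -0.71). Of 16 NOTCH pathway genes 4 rose and 3 fell. The glycosyltransferase LFNG (log2 -1.57) and the target NRARP (-0.96) fell and the ligand JAG2 (0.68) and the target HES4 (1.07) rose. The call of NRARP was lost without the first DMSO library (-0.78) and without the third 800 nM library (-0.79). The NOTCH counts were 2 rises without the third 800 nM library and 5 falls without the first. Semaphorins and plexins, guidance cues and their receptors, had 7 of 15 members down and 2 up (median -0.56, and -0.33 with a GC trend removed). SEMA3C, a secreted semaphorin at high level, fell from 597, 629 and 590.1 to 292, 267 and 241, and SEMA4F, SEMA4B and PLXND1 fell, with log2 fold changes of -1.03, -0.78 and -0.95. SEMA4B and PLXND1 were named after their values were seen, and SEMA4B was not called with a GC trend removed (-0.55). The membrane-anchored SEMA7A rose, from 14.6, 17.1 and 10.7 to 48.4, 31.7 and 48.7. The coreceptor NRP2 had 4.86, 8.57 and 12.2 with DMSO against 14.1, 19.5 and 18.1 with 800 nM, and its call was lost with DESeq2 and without the first DMSO library (0.69), the second 800 nM library (0.91) or the third (0.96).

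In the list of eIF2α kinases, phosphatases and PKR cofactors 4 of 19 genes rose and 0 fell (median 0.23). Both regulatory subunits that direct a phosphatase to eIF2α rose: PPP1R15A from 29.1, 29.5 and 26.7 to 43.4, 57.3 and 65.8 and PPP1R15B from 69.0, 59.998 and 80.7 to 128, 143 and 128. EIF2AK3, encoding the ER stress kinase PERK, rose 1.95-fold, with 16.8% of its exon bases shared with LOC101928371. PRKRA, an activator of PKR, had a log2 fold change of 0.61 and lost its call in 5 of the settings tried, with the lowest value, 0.43, when the second DMSO library was left out; it was 0.58 without the second 800 nM library. The other kinase genes, EIF2AK1 (-0.16, with 11.9% shared with AIMP2) and EIF2AK4 (0.15), did not pass the test.

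Of 30 ATF4 targets of the integrated stress response 17 rose and 4 fell, with a median of 0.62 at 800 nM and 0.83 at 400 nM. ATF3, also an AP-1 list member, had 17.5, 15.2 and 14.5 with DMSO against 59.5, 64.6 and 60.1 with 800 nM, the secreted hormone STC2 92.3, 79.997 and 98.99 with DMSO against 281, 217 and 230.0 with 800 nM, and the alanine transaminase GPT2 35.0, 28.6 and 40.4 with DMSO against 113, 93.8 and 93.5 with 800 nM. Every treated library exceeded every control in these 3 genes. Amino acid transporters and enzymes of serine metabolism were among those called. SLC7A11, the cystine importer, rose 2.41-fold, SLC1A4 2.21-fold, PHGDH 1.67-fold and the mitochondrial SHMT2 2.6-fold. TRIB3 (2.14-fold), SESN2 (2.07-fold) and DDIT3, encoding CHOP (1.74-fold), rose as well. ATF4 itself had a log2 fold change of 0.16 at 800 nM and 0.70 at 400 nM, ASNS 0.23 and 0.46. The members that fell were NUPR1, a stress-induced chromatin protein (32.1, 34.3 and 25.9, then 8.07, 13.4 and 5.72), DDIT4, an inhibitor of mTORC1 (-1.11 on the log2 scale), ATF5 (-0.96) and PCK2 (-0.63, with overlapping groups). PCK2 lost its call in 6 of the settings tried, edgeR and DESeq2 among them, and was -0.27 without the first 800 nM library. SLC1A4, PHGDH, SHMT2, TRIB3, SESN2, DDIT3, DDIT4, ATF5 and PCK2 were named after their values were seen.

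Of 19 cytosolic aminoacyl-tRNA synthetases 5 rose and 1 fell (median 0.33). GARS had 500.4, 524 and 458 with DMSO against 847, 898 and 882 with 800 nM, and VARS and YARS rose by 0.70 and 0.64 on the log2 scale. The coordinates of VARS do not give a single position, so its count is less certain. DARS fell, from 175, 183 and 150.0 to 90.8, 101 and 79.2. Genes for ER chaperones and the unfolded protein response had 6 of 24 members up and 0 down (median 0.36), with DNAJB9 (2.13-fold), MANF (1.65-fold) and DNAJB11 (1.6-fold) among them. EDEM1, of ER-associated degradation, had a log2 fold change of 0.63 and was not called without the first DMSO library (0.50), without the first 800 nM library (0.55) or with a GC trend removed (0.56). Of 26 cytosolic heat shock chaperones 0 rose (2 without the first DMSO library) and HSPA1A fell (109.8, 119 and 113, then 57.5, 63.4 and 68.7); HSPA1A has a near-identical paralog, so its count is uncertain. NRF2 targets split, 5 up and 3 down of 23. OSGIN1 rose 2.82-fold and SLC7A11 as above, while NQO1, the quinone reductase, fell from 196, 156 and 134 to 80.7, 67.0 and 72.5. Targets of p53 split evenly, 4 up and 4 down of 21 (median 0.01, and -0.04 with a GC trend removed). GDF15, a stress-induced cytokine, had 80.6, 99.996 and 80.7 with DMSO, 374, 321 and 392 with 400 nM and 248, 306 and 225 with 800 nM, and AEN, an apoptosis nuclease, rose 2.09-fold. TP53INP1 and TP53I3 fell, with log2 fold changes of -1.50 and -1.42.

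G1 cyclins, their kinases and inhibitors had 7 of 18 members up and 4 down (median 0.49). CCND2, which encodes cyclin D2, was barely detected with DMSO (0, 3.81 and 0.761) and had 18.2, 17.1 and 22.9 with 800 nM. Its groups did not overlap, but the fitted log2 fold change of 3.31 ± 0.42 depends on the pseudocount at such levels. CCND3 (28.2, 45.7 and 36.5, then 112, 89.0 and 93.5) and CCNE2 (20.4, 25.7 and 16.8, then 65.6, 59.7 and 67.7) rose, CCNE1 rose 2.48-fold, and CCND1, with 281, 287 and 308 with DMSO against 442, 386 and 449 with 800 nM, stayed under the fold threshold (log2 0.54) but passed it without the second 800 nM library (0.61). CCNE1 was added after its values were seen. CDKN1B, encoding the inhibitor p27, fell from 63.2, 69.5 and 56.3 to 25.2, 20.7 and 23.9. Replication genes had 15 of 49 members up and 3 down (median 0.33). CDC6, which loads the MCM helicase, had 92.3, 59.0 and 81.5 with DMSO against 191, 206 and 225 with 800 nM, and RFC3, MCM10 and FEN1 rose 2.35-, 2.08- and 1.96-fold. Of 49 mitosis genes 1 rose and 2 fell (median 0.03). The member that rose was CDC25A, a phosphatase that activates CDKs, with 10.7, 12.4 and 15.2 with DMSO against 68.6, 52.4 and 61.1 with 800 nM. Those that fell were the condensin gene NCAPD2 (log2 -0.71) and KIF20A (-0.67); the latter was not called without the third DMSO library (-0.53). Of 13 BCL2 family genes 3 rose and 1 fell. The antiapoptotic BCL2A1 had 7.77, 1.90 and 0.761 with DMSO against 19.2, 21.9 and 16.2 with 800 nM, and the proapoptotic PMAIP1 rose 1.83-fold. BCL2L1 (log2 0.59) and BCL2L11 (-0.61) lay at the fold threshold. BCL2L1 was not called with a pseudocount of 5 (0.57) or without the third DMSO library (0.51) or the first 800 nM library (0.56). BCL2L11 lost its call with DESeq2 and with a pseudocount of 5 (-0.56). The same held without the first DMSO library (-0.54), the third (-0.60) or the second 800 nM library (-0.54).

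Interferon-stimulated genes and RNA sensors had the lowest median of the lists (-0.62, and -0.22 at 400 nM): 13 of 27 fell and 2 rose. To show what the promoters of these genes share, the core of the interferon-stimulated response element, TTTC, 2 bases of any kind and TTTC again, or GAAA, 2 bases and GAAA on the other strand, was searched from 250 bases before to 50 bases after the start in the RefSeq promoters (GRCh38.p14). This motif was added after the values were seen. It was present in 11 of the 18 list members with a promoter in the table, against 2.56% of the promoters of all tested genes and 3.65% of all RefSeq promoters. The list was chosen for its response to interferon, so this difference describes the list and not the treatment. Of the 11 genes 7 were called down and 1 up. Over all tested genes the motif was in 2.05% of the promoters of genes called up. It was in 2.99% of those called down and 2.55% of those not called. Windows of 30 bases around a match, 5′ to 3′ on the strand of the gene with the core in capitals, follow for 4 genes that fell, for OAS3, which rose, and for EIF2AK2, which was not called.
IFIT3 (chr10:89327831-89327860, plus strand): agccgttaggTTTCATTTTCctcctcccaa
IFITM1 (chr11:313990-314019, plus strand): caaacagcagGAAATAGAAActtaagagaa
IFITM3 (chr11:320893-320922, minus strand): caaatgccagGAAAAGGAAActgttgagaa
IFI6 (chr1:27672329-27672358, minus strand): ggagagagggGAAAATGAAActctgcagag
OAS3 (chr12:112938321-112938350, plus strand): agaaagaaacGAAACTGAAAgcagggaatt
EIF2AK2 (chr2:37156967-37156996, minus strand): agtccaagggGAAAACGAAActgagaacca

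IFIT3, of the family that binds foreign RNA 5′ ends, had 30.1, 31.4 and 26.7 with DMSO, 24.5, 21.9 and 24.5 with 400 nM and 4.03, 14.6 and 10.5 with 800 nM. Its neighbor IFIT2 had 52.5, 33.3 and 45.7 with DMSO, 39.4, 29.98 and 41.5 with 400 nM and 12.1, 18.3 and 9.54 with 800 nM. In both genes the 800 nM libraries lay below all controls. The membrane proteins IFITM1 (35.9, 31.4 and 25.9, then 9.08, 9.75 and 7.63) and IFITM3 (234, 218 and 232, then 103, 87.7 and 99.2) block virus entry and fell 3.25- and 2.35-fold; they are close paralogs, so reads may be split between them. OASL, related to the oligoadenylate synthetases, fell from 15.5, 28.6 and 20.6 to 0, 4.87 and 0.954, at levels of few reads. IFI6 fell 2.33-fold. OAS3, which makes the second messenger of RNase L, rose from 49.6, 52.4 and 62.4 to 88.8, 85.3 and 106, and TRIM25, a ubiquitin ligase of the RIG-I pathway, from 156, 165 and 184 to 349, 342 and 331. The core carried by IFIT3, IFITM1, IFITM3 and IFI6 was thus also present in the promoters of a gene that rose and of a gene that did not pass the test. The factor STAT2 (log2 -0.14) and the target ISG15 (-0.26) did not pass it either. IFITM3, IFI6, OAS3 and TRIM25 were named for the motif or the direction, after their values were seen.

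NF-κB pathway genes had 3 of 18 members up and 4 down (median -0.09, and 0.08 with a GC trend removed). Only the 4 falls are named here, by size of change, and the highest value of the list was 0.96 on the log2 scale. The inhibitor NFKBIA, itself an NF-κB target, fell from 68.0, 74.3 and 40.4 to 16.1, 18.3 and 22.9, the chemokine CX3CL1 from 19.4, 26.7 and 29.7 to 5.04, 7.31 and 3.82, and the kinase MAP3K14 from 115, 101 and 132 to 38.3, 51.2 and 37.2. TNFAIP2 fell 2.35-fold. In the MHC class I list 3 of 14 fell and 1 rose. The immunoproteasome subunit PSMB9 had 37.9, 27.6 and 25.9 with DMSO against 8.07, 19.5 and 2.86 with 800 nM, a wide spread among treated libraries, and the peptide-loading chaperone TAPBP 249.7, 228 and 260.4 with DMSO against 137, 136 and 124 with 800 nM. The trimming peptidase ERAP1 (-0.68 on the log2 scale) was not called without the first 800 nM library (-0.55), nor the transporter TAP2 (0.61) without the second DMSO library (0.56) or with a GC trend removed (0.56). The coordinates of PSMB9, TAPBP and TAP2 do not give a single position (for TAP2 4016121 to 32838823, with 49213 exon bases). Their counts are therefore less certain.

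Among 5 tested keratins KRT19 fell and KRT80 rose, from 28.2, 23.8 and 32.7 to 64.6, 82.9 and 72.5. At 400 nM KRT80 had 99.97, 87.6 and 102, each value above every 800 nM value. Junction genes had 3 of 25 members up and 5 down (median -0.12, and -0.02 with a GC trend removed). Over all genes tested the shares were 11.6% up and 14.1% down. CLDN1 rose from 22.3, 27.6 and 31.2 to 80.7, 87.7 and 84.9, whereas the claudins CLDN4 (170.0, 157 and 164, then 63.5, 92.6 and 91.6) and CLDN7 (35.0, 31.4 and 32.0, then 16.1, 12.2 and 18.1) fell with JUP. At 400 nM CLDN7 had 42.5, 35.7 and 37.2, with a log2 fold change of 0.22. The 3 claudins thus did not move in 1 direction. Of 9 genes of epithelial-mesenchymal transition 1 rose and 4 fell (median -0.46, and -0.27 with a GC trend removed). SPARC fell from 154, 137 and 158 to 21.2, 28.0 and 21.0 and S100A4, a calcium-binding protein, from 200.2, 179 and 164 to 95.8, 97.5 and 91.6, both markers of mesenchymal cells. The epithelial splicing factor ESRP2 fell 2.08-fold, with 17.7% of its exon bases shared with NFATC3. The repressor SNAI1, at low level, had a log2 fold change of 0.99. It was not called with DESeq2 or without the second DMSO library (0.76), the first 800 nM library (0.88) or the second (0.88). In the list of pancreatic cancer drivers and lineage factors 0 of 12 rose and 2 fell, among them the secretory epithelial gene AGR2 (152, 128 and 136, then 76.7, 85.3 and 76.3).

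Of 23 laminins, collagens and basement membrane genes 11 fell and 5 rose (median -0.39). With a GC trend removed 6 fell, and the median was -0.10. Among the falls were core components of the basement membrane: HSPG2, encoding perlecan (11.7% of its exon bases shared with LDLRAD2), from 299, 337 and 475 to 118, 109.7 and 126, COL18A1 from 1652, 1654 and 1918 to 938, 1022 and 928 and LAMA5 from 608, 661 and 796 to 411, 439 and 392. All treated libraries lay below the controls in these 3 genes, which were named after their values were seen, and at 400 nM their log2 fold changes were -0.41, -0.29 and -0.09. With a GC trend removed COL18A1 (-0.53) and LAMA5 (-0.42) were not called. MXRA5 and VWA1 had the greatest falls of the list. LAMA3, a subunit of laminin-332 of epithelial anchorage, rose instead, from 5.83, 15.2 and 8.38 to 28.2, 32.9 and 35.3. COL7A1, whose product binds laminin-332, rose from 37.9, 56.2 and 63.2 to 236, 190.1 and 222. Of 10 integrins ITGA2, the collagen-binding α2 subunit (132, 140.0 and 158, then 387, 414 and 399), and ITGA5, the fibronectin-binding α5 subunit (187, 162 and 177, then 350.0, 329 and 333), rose, and ITGB3 (27.2, 33.3 and 28.9, then 3.03, 15.8 and 10.5) fell. Among 6 tested genes of the plasminogen system 2 rose and 2 fell. PLAU, encoding urokinase, had 235, 186 and 212 with DMSO, 623, 689.6 and 659.6 with 400 nM and 600.1, 589 and 654 with 800 nM and rose 2.91-fold, with 28.6% of its exon bases shared with C10orf55. The clearance receptor LRP1 fell from 70.0, 78.1 and 88.3 to 38.3, 25.6 and 37.2, and S100A10 1.88-fold.

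Hyaluronan genes had 4 of 13 members up and 3 down (median -0.31). HAS3 (chr16:69105564-69118716), a hyaluronan synthase, had 6.80, 7.62 and 6.09 with DMSO, 69.1, 64.6 and 81.9 with 400 nM and 60.5, 62.1 and 82.1 with 800 nM. The treated groups lay far above the controls and overlapped each other, and the rise at 800 nM was 8.78-fold (log2 3.13 ± 0.20, adjusted p = 5.81e-20). Its paralog HAS2 had 14.6, 17.1 and 9.90 with DMSO against 10.1, 7.31 and 1.91 with 800 nM, a log2 fold change of -1.17 with overlapping groups. HAS2 was not called with DESeq2 or without the second DMSO library (-1.01) or the third 800 nM library (-0.60). UAP1, which makes the UDP-N-acetylglucosamine that the synthases use, rose from 139.9, 146 and 121 to 334, 367 and 398. The hyaluronidase TMEM2 rose 2.54-fold.

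Actin and focal adhesion genes had 6 of 40 members up and 5 down (median -0.02, and 0.07 with a GC trend removed). Both counts were near the shares over all genes tested, 11.6% up and 14.1% down. FLNC rose from 57.3, 62.9 and 85.3 to 307, 318 and 341 and the actin-binding LIMA1 from 154, 186 and 179 to 353, 349.7 and 424. TNS3, a tensin of focal adhesions, fell from 846, 885 and 1016 to 277, 253 and 333 and ACTG1, cytoplasmic γ-actin, from 3616, 3502 and 3795 to 1855, 2027 and 1961. Both changes were larger than the spread within groups, with log2 fold changes of -1.67 ± 0.08 and -0.90 ± 0.05. Of 85 genes averaging 1000 or more, 5 rose (5.88%) and 13 fell (15.3%, against 14.1% of all genes tested). EEF1A1, the elongation factor with the highest level of all, had 14668, 14198 and 13691 with DMSO against 8946, 9659 and 9486 with 800 nM, and the saposin precursor PSAP 4284, 4309 and 4102 with DMSO against 1981, 2128 and 1899 with 800 nM. The scaffold gene AKAP12 rose from 696, 734 and 815 to 1614, 1602 and 1774. EEF1A1 was not called without the first DMSO library (log2 -0.58) or the first 800 nM library (-0.57). EEF1A1, PSAP and AKAP12 were picked after their values were seen.

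Of 24 cholesterol synthesis genes 4 rose and 1 fell (median 0.28), with 2 rises when the third 800 nM library was left out and 3 falls without the second. SC5D, a sterol desaturase, rose from 131, 114 and 122 to 201, 214 and 197. NSDHL, of sterol demethylation, had 0.66 on the log2 scale and was not called without the third 800 nM library (0.57). TM7SF2, a sterol C14 reductase, had 104, 106 and 87.6 with DMSO, 18.1, 18.5 and 20.2 with 400 nM and 12.1, 9.75 and 9.54 with 800 nM. It fell 8.74-fold, the only member called down with all libraries. Fatty acid synthesis genes had 2 of 17 members up and 6 down (median -0.32). Beside SREBF1 the desaturase FADS2 fell from 1074, 1086 and 1142 to 349, 328 and 285, its neighbor FADS1 from 495, 465 and 495 to 255, 244 and 237 and the carboxylase ACACB 2.15-fold. Fatty acid oxidation genes had 0 of 23 members up and 6 down (median -0.18). ECH1, an auxiliary enzyme for unsaturated chains, had 1015, 975 and 1007 with DMSO against 288, 314 and 295 with 800 nM, and ACADSB, ETFB and the carnitine transferase CPT2 fell 2.72-, 1.88- and 1.85-fold.

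Of 22 glycolysis genes 7 rose and 3 fell (median 0.27). HK2, the inducible hexokinase, had 7.77, 7.62 and 5.33 with DMSO against 29.3, 40.2 and 34.4 with 800 nM, and the enolase ENO2 rose 1.93-fold. SLC16A3, the lactate exporter MCT4, fell from 656, 651 and 707 to 289, 273 and 284, and the phosphofructokinase PFKL 2.04-fold. Nuclear genes of the respiratory chain had 0 of 76 members up and 5 down (median 0.08). Both counts were below the shares over all genes tested, 11.6% up and 14.1% down. Without the first DMSO library, and with a GC trend removed, 3 rose. NDUFB1 of complex I had 52.5, 55.2 and 45.7 with DMSO against 35.3, 25.6 and 22.9 with 800 nM, and ATP5G2, the c subunit of the ATP synthase, fell too (log2 -0.70). NDUFA7 (-0.78) was not called with DESeq2 or without the third 800 nM library (-0.66), nor NDUFB5 (-0.69) without the first (-0.52). The genes of the mitochondrial genome were not analysed here. Of 10 polyamine genes the oxidase SMOX (2.3-fold) and AMD1 (1.61-fold) rose and 0 fell. Lysosome genes had 7 of 42 members up and 8 down (median 0.06, and 0.04 with a GC trend removed). The channel MCOLN1 had 8.74, 9.52 and 8.38 with DMSO against 27.2, 26.8 and 28.6 with 800 nM, and the protease CTSH 109, 135 and 104 with DMSO against 35.3, 48.7 and 33.4 with 800 nM. ARSA, a sulfatase, fell 2.43-fold. Of 15 drug efflux transporters 0 rose and 4 fell: ABCC3 the most (137, 134 and 167, then 29.3, 30.5 and 25.8), the mitochondrial ABCB8 (log2 -0.82), ABCA5 (-1.11) and ABCC1 (-0.64). ABCA5 was not called with DESeq2 or without the third 800 nM library (-0.75). ABCC1 was not called with a GC trend removed (-0.56) or without the third DMSO library (-0.55).

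Among 79 cytosolic ribosomal protein genes 0 rose and 5 fell, with a median of -0.17 at 800 nM and -0.16 at 400 nM. Over all genes tested 11.6% rose and 14.1% fell, so both counts were below the general share. Without the first 800 nM library 2 fell. RPS27 (-0.69) was not called without the first DMSO library (-0.55), and RPL10 (-0.64) and RPL23 (-0.64) without the first 800 nM library (-0.56 and -0.53). Ribosomal protein genes have many processed pseudogenes, so single values are uncertain. Of 75 mitochondrial ribosomal protein genes 6 rose and 4 fell (median 0.01), again below the shares over all genes tested. With a GC trend removed 2 fell. MRPL53 (-1.43) and MRPL24 (-1.23) fell and MRPS25 (0.82) and MRPS30 (0.80) rose. Of 31 proteasome genes 0 were called in either direction (median -0.03) by limma. The proteasome values ranged from -0.36 to 0.48 on the log2 scale. At an unadjusted p under 0.05, 7 genes were higher and 6 lower, against 5118 of all 9963 genes tested in either direction. For the proteasome genes edgeR and DESeq2 called 0. Translation initiation factors had 4 of 34 members up and 1 down, against 11.6% and 14.1% of all genes tested. EIF3J (214, 215 and 196, then 375, 398 and 377) and EIF6 (146, 158 and 150.0, then 261, 284 and 289) were among the rises. EIF3I rose by 0.62 on the log2 scale, and EIF4EBP1, a repressor of eIF4E, had 0.70 and was not called without the second 800 nM library (0.55). SR and hnRNP splicing factors had 0 of 35 up and 6 down (median -0.37). SRSF3 had 454, 421 and 394 with DMSO against 262, 259.6 and 265 with 800 nM, and HNRNPDL 218, 240.0 and 219 with DMSO against 138, 127 and 122 with 800 nM. SRSF8 (log2 -0.90) and PTBP1 (-0.70) fell too, the latter a call lost with a GC trend removed (-0.54). Mediator subunits had 2 of 29 up and 5 down, against 11.6% and 14.1% of all genes tested. MED29 had 1239.8, 1262 and 1312 with DMSO against 498, 491 and 516 with 800 nM, MED12 fell 2.07-fold, and the kinase CDK19 fell 1.85-fold whereas its cyclin CCNC rose 1.8-fold. Of 15 lamin and HMG genes HMGN2 (619, 595 and 592, then 240.1, 274 and 281) and LMNB1 (1.65-fold) fell and HMGA1 rose (362, 354 and 465, then 647, 589.8 and 674), while HMGB2 (-0.60 on the log2 scale) was not called without the first DMSO library (-0.57) or the first 800 nM library (-0.54). The nuclear RNAs MALAT1 (603, 571 and 586, then 319, 335 and 304) and NEAT1 (302, 280.0 and 377, then 212, 194 and 166) fell, and the snoRNA host SNHG12 rose 2.18-fold. SNHG17 (0.76) lost its call with DESeq2 and when single libraries were left out, with the lowest value, 0.57, without the first 800 nM library.

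Several lists had 0 calls in a direction by limma. At an unadjusted p under 0.05, 25 of 76 respiratory chain genes, 10 of 26 heat shock chaperones, 6 of 79 ribosomal protein genes, 2 of 15 efflux transporters, 1 of 23 fatty acid oxidation genes and 1 of 35 splicing factors were higher, and 3 of 19 genes of the eIF2α list were lower. The same count was 0 for higher levels in the list of pancreatic cancer drivers, and for lower levels among ER chaperones and polyamine genes. Over all 9963 genes tested 5118 reached such a p, higher and lower together, so it was common among all genes. In these directions edgeR called 1 efflux transporter up, and DESeq2 called 0.

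The genes were also ordered along the chromosomes, and the median log2 fold change was taken over each window of 15 consecutive tested genes. Over 9331 windows this median had a 1st and 99th percentile of -0.56 and 0.40. The lowest window, chr12:53480492-54188994, held the HOXC cluster, genes of body axis patterning that lie side by side: its median was -0.91, 12 of its 15 genes fell and 0 rose. Per library, the window's median deviation from the mean of the DMSO libraries was -0.93, -0.88 and -0.94 at 800 nM and -0.56, -0.74 and -0.64 at 400 nM, against -0.11, -0.07 and 0.10 in the controls. HOXC9 had 39.8, 45.7 and 47.2 with DMSO and 10.1, 13.4 and 18.1 with 800 nM, and HOXC4 21.4, 21.0 and 23.6 with DMSO against 3.03, 8.53 and 5.72 with 800 nM, although 24.0% of its exon bases are shared with HOXC5 and HOXC6. All 7 tested HOXC genes fell (median -0.98), and so did neighbors outside the family such as CALCOCO1 (log2 -1.74) and SMUG1 (-1.06). The antisense RNA HOTAIR of this cluster did not pass the test (-0.16).

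The window chr17:47837681-48614939 held the HOXB cluster and had a median of -0.77, with 9 genes down and 0 up (-0.40 over 25 genes). Of 9 tested HOXB genes 7 fell (median -0.87), among them HOXB6 (137, 129.5 and 150.0, then 55.5, 47.5 and 59.2) and HOXB3 (126, 117 and 144, then 76.7, 64.6 and 69.7). HOXB7, between HOXB6 and HOXB8, had 70.0, 59.998 and 60.9 with DMSO against 63.5, 71.9 and 58.2 with 800 nM and did not pass the test (log2 0.02 ± 0.15). Of the genes of this window outside the family SCRN2 (-1.08) and SP2 (-0.71) fell, the latter not called with DESeq2, with a GC trend removed (-0.58) or without the third 800 nM library (-0.61), and 5 were not called, CBX1 (0.03) and NFE2L1 (-0.15) among them. The HOXA genes had 0 of 2 tested members called. The HOX families were picked after the windows were seen, and homeobox paralogs share sequence, so single values are less certain. The other low window, chr20:50123737-56368662, had a median of -0.82 with 8 genes down and 2 up, but of -0.05 over 25 genes. It includes ZNF217 (325, 340.0 and 345, then 148, 119 and 138) and NFATC2 (-1.90). The 3 highest windows, on chromosomes 4, 3 and 8, had medians of 0.59, 0.59 and 0.57, with 8, 8 and 6 genes up. Over 25 genes these medians were 0.32, 0.23 and 0.21, and over 10 genes 0.29, 0.48 and 0.58.

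**Figure D4:**
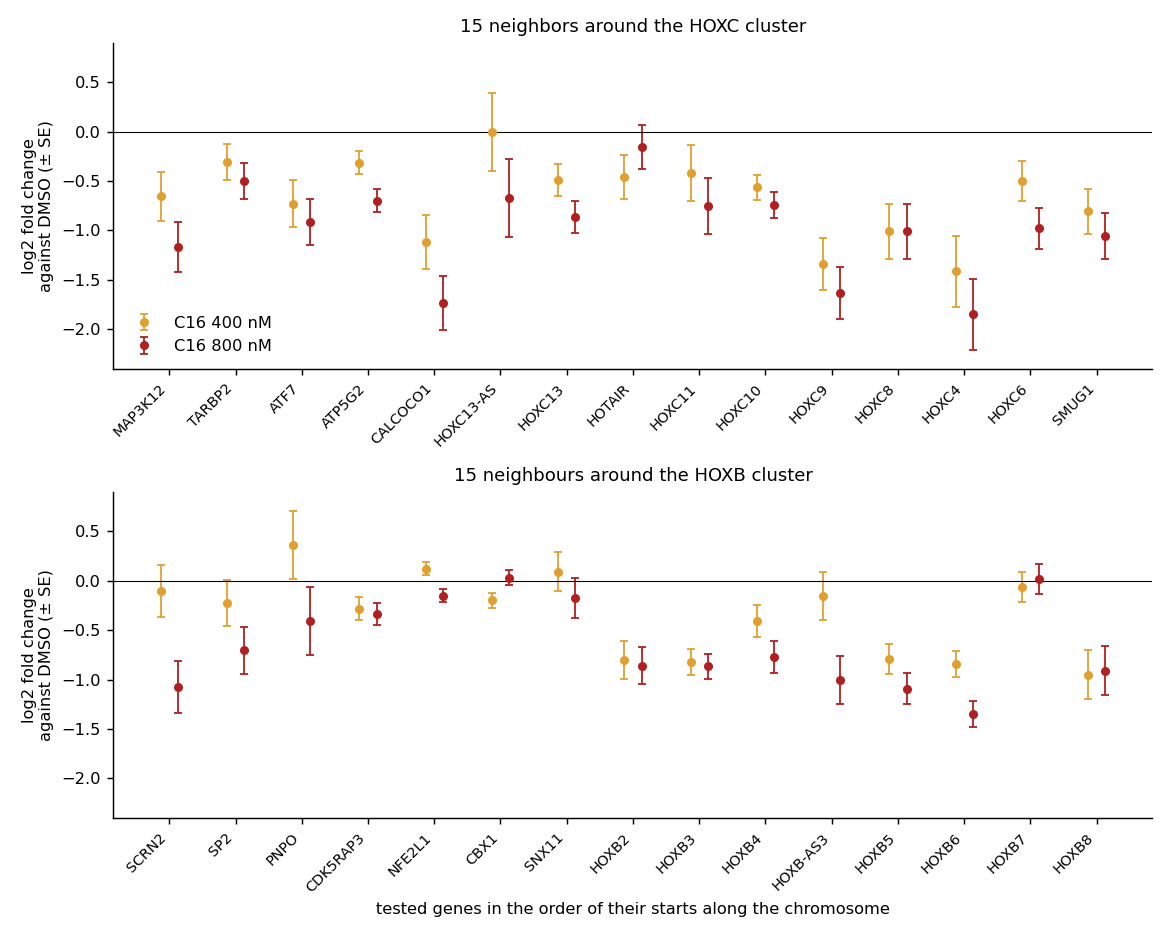
Log2 fold change against DMSO (points, with SE as bars, 3 libraries a group) at 400 nM and 800 nM C16 for the 15 consecutive tested genes around the HOXC cluster (top) and the HOXB cluster (bottom), in chromosomal order. At 800 nM 12 and 9 of the 15 genes were called down, and HOTAIR and HOXB7 lie near 0.

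The GC content of the genes differed between the calls. The median exon GC content was 55.7% for genes called down, 47.2% for genes called up and 48.1% for the rest. With the genes in 5 equal groups by GC content, the share called down, from the lowest group to the highest, was 7.63%, 8.94%, 10.5%, 17.7% and 25.6%, and the share called up 12.0%, 13.7%, 13.9%, 10.6% and 7.88%. The median log2 fold change at 800 nM was 0.07 in the lowest group and -0.21 in the highest, while at 400 nM these medians were -0.05 and -0.04. All 3 of the 800 nM libraries showed this, with medians of -0.17, -0.23 and -0.20 in the highest group against 0.00, -0.02 and 0.03 in the controls. By chromosome, the median was lowest on chromosome 19 (-0.24, with a median exon GC content of 60.4%) and highest on chromosome 13 (0.14, with 42.0%). The part of GC content in the results was not tested beyond a fit with the GC trend removed, which called 1231 genes up and 1242 down.

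**Figure D5:**
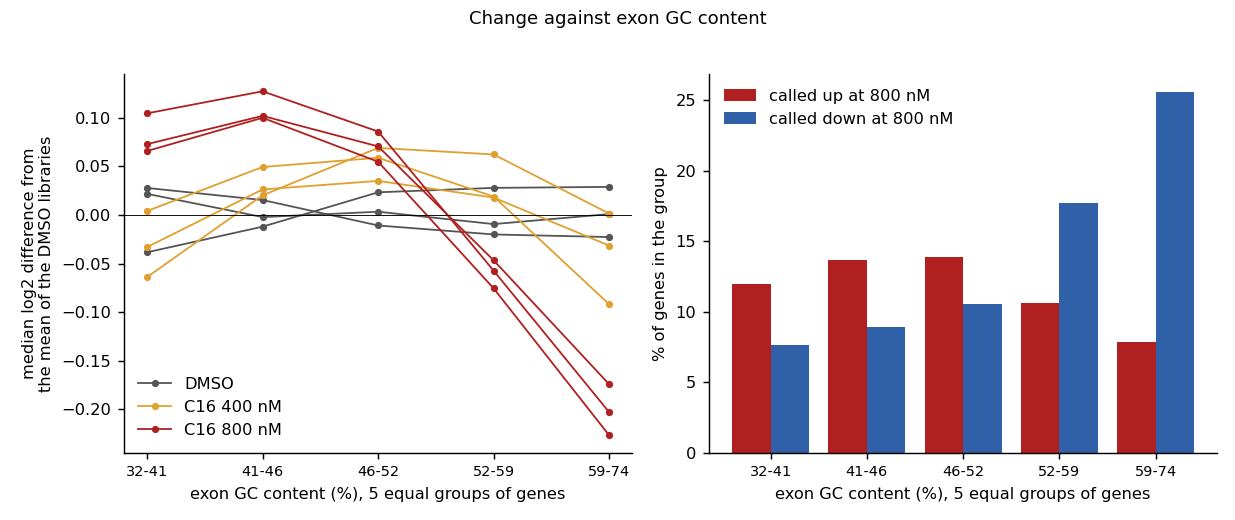
Left, median log2 difference of each of the 9 libraries from the mean of the DMSO libraries, for genes in 5 equal groups by exon GC content (%); right, the percentage of genes in each group called up or down at 800 nM. The share called down rises from 7.63% to 25.6% over the groups, and the 3 libraries at 800 nM lie at -0.17 to -0.23 in the highest.

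Promoters were compared where the RefSeq table had them, for 7786 of the tested genes, 880 of those called up and 1071 of those called down. The AP-1 site TGACTCA, or TGAGTCA on the other strand, was present in 4.20% of the promoters of genes called up, 2.52% of those called down and 2.62% of all tested (4.92% of all RefSeq promoters). Searched likewise on both strands, the TATA box TATAAA was in 6.93%, 4.95% and 4.71% (12.0% of all), the E-box CACGTG in 12.5%, 8.78% and 10.9% (7.43% of all), and the CCAAT box in 36.3%, 38.6% and 37.3% (35.7% of all). These shares describe letters in a window and were not tested. Among the 15 greatest rises the AP-1 site was in 1 of 11 promoters, that of ABL2, and among the 15 greatest falls in 0 of 11. The window around the site is shown for ABL2, the member of these 15 that holds it, with the site in capitals.
ABL2 (chr1:179143240-179143269, minus strand): taactccattcTGACTCAgtcttttgcgga
ABL2 had 52.5, 52.4 and 67.0 normalized counts with DMSO, 195, 208 and 189 with 400 nM and 248, 205 and 219 with 800 nM. The median exon length was 3688 bases for genes called up, 3316 for genes called down and 3526 for all tested.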

How the data were processed

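RNA-seq of PANC-1 cells treated for 72 h with DMSO, 400 nM or 800 nM C16 was analyzed, 3 libraries per group. According to the study's methods and the submitters' processing notes, poly(A) RNA was prepared with a directional kit, reads were aligned to hg38 with TopHat (version not given in the sources used here) and the authors counted reads per gene with featureCounts and deposited counts divided by TMM size factors from TCC, a per-gene signal that is no longer whole. Whether counting used strand is not given in the sources used here. Each value divided by its library's step gave whole reads to within 0.1, which were used only for the count tests. 0 columns lacked a sample. The depth of 894145 to 1474308 reads on genes per library limits precision for lowly expressed genes.

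Genes with a mean of at least 10 over the 9 libraries were tested on log2(normalized count + 1) with limma 3.58.1 (trend, R 4.3.3), in 1 fit over the 3 groups, and called at a Benjamini-Hochberg adjusted p under 0.05 and a fold change over 1.5. Fold changes are on that scale and understate changes of low genes. The test was checked on simulated counts with the same dispersion for all genes and few changed genes. That check does not give error rates for these data. The fit was repeated with a replicate block, on the 2 groups alone, after median-of-ratios scaling, with pseudocounts of 0.5 and 5, with the filter at 30 or absent, without each library in turn, with edgeR 4.0.16 and DESeq2 1.42.0 and, chosen after seeing the data, with a GC trend removed.

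Members and lists were chosen with earlier results of these data known. Named were the markers and targets, the 15 greatest rises and falls among called genes with a mean of at least 50 and separate libraries, up to 4 called members per list with the greatest change, the 3 highest and 3 lowest windows of 15 consecutive genes and promoter motifs; other called genes were named after their values were seen, and uncalled list members are context. Of 1403 list entries 1389 were listed, 43 by an older symbol. Genes without a single chromosomal position were left out of windows (310). Promoters are RefSeq's (GRCh38.p14). The libraries of other treatments were not used here. Some genes are not reported here.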

Additional observations from a re-analysis of the deposited data

How the results depend on the processing

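At 800 nM the counts of genes called up and down moved by less than 1.5 times under every alternative run except the minimum mean of 30, where 800 genes were down and 818 up among 7081 tested; at 400 nM the same setting gave 296 down and 473 up. This setting tests fewer genes. Without a filter 17683 genes were tested, with 1315 up and 1679 down at 800 nM. edgeR called 1208 up and 1450 down, DESeq2 1015 and 1183. With single libraries left out, 1108 to 1162 genes were up and 1291 to 1410 down at 800 nM, and 647 to 711 up and 448 to 577 down at 400 nM. With the GC trend removed, an alternative chosen after seeing the data, 1231 were up and 1242 down.

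Replicate numbers did not pair the samples (correlation of same-numbered libraries between -0.05 and 0.02), and a replicate block gave 1158 up and 1396 down at 800 nM and 699 and 540 at 400 nM. Not every library correlated best with its own number.

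Of 236 called genes taken by the naming rule (196) or named beside it (40), 202 kept the call under every setting that tested them, 34 lost it under at least 1 (26 and 8), and 0 reversed. The minimum mean of 30 tested 187 of the 236. EIF2AK2, which was not called, had a log2 fold change below 0 with edgeR (-0.0022) and with the GC trend removed (-0.065), and between -0.051 and 0.069 with single libraries left out (below 0 without the first DMSO or the first 800 nM library). Other uncalled genes near 0 also changed sign. With the GC trend removed the log2 fold change was -0.0090 for CBX1, -0.0084 for HOXB7 and 0.017 for ISG15. With single libraries left out it ranged from -0.0047 to 0.073 for CBX1, -0.26 to 0.11 for DUSP6, -0.32 to 0.044 for HOTAIR, -0.061 to 0.089 for HOXB7 and -0.025 to 0.034 for KRT18. The depth limits calls among low genes: the median SE of the log2 fold change was 0.30 for the 1993 genes of lowest level and 0.09 for the 1993 of highest level.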
